A study of Homo sapiens with 8 samples.

Results

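Ribosome biogenesis genes were followed in DU145 cells with exogenous SOX11. They are 36 named genes of nucleolar proteins and assembly factors, taken as the rows of the raw count table whose Ensembl ID maps to each symbol. All 36 were found, each as 1 row, among 32066 rows. DU145 is an established human prostate carcinoma line that was derived from a brain metastasis. RNA was sequenced in 4 libraries of cells labelled SOX11 overexpression and in 4 libraries of cells labelled control. Both groups are DU145 cells kept in the same growth medium, and the comparison is between cells with and without exogenous SOX11. The labels name no vector, promoter, clone or time, and do not say whether the libraries came from separate cultures, so p-values measure the spread between these libraries, which may be technical. In bulk RNA, a lower level in every cell and fewer cells with the transcript cannot be told apart.

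Ribosomes are built in the nucleolus. RNA polymerase I makes a long ribosomal RNA precursor there, small nucleolar ribonucleoproteins (snoRNPs) modify it, and a large complex called the small subunit processome folds and cuts it. Separate sets of helicases, GTPases and scaffold proteins then mature the 40S and 60S subunits. MYC is a well-known activator of many of these genes, and carcinoma cells usually express them at high levels.

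Total counts ran from 15309037 to 16740516 in SOX11 libraries and from 14641250 to 18706095 in control libraries. SOX11, a transcription factor of the developing nervous system, had 303 to 317 counts in SOX11 libraries and 0 in each control library. Its level of 19.2 ± 0.943 CPM (the count relative to library size, corrected with TMM factors; SD, n = 4) was at least 404-fold higher than the level of 3 counts over the whole control group. The table does not tell the introduced sequence from the endogenous gene. The epithelial genes KRT8, KRT18, KRT19, EPCAM and CDH1 were present in every library and summed to 1200 to 1206 CPM in SOX11 and 1497 to 1761 CPM in control libraries. Marker lists of fibroblasts (5.84 to 7.71 CPM in SOX11, 3.33 to 5.43 CPM in control libraries), blood (0.555 to 0.710 and 0.693 to 0.824 CPM) and endothelium (0.183 to 0.532 and 0.325 to 0.639 CPM) were low. DCN, LUM and CD3E of these lists were not rows of the table, and the part of these cell types in the results was not tested. Of the brain cell markers, MBP and GFAP were in the table and summed to 59.7 to 64.7 CPM in SOX11 and 73.2 to 75.5 CPM in control libraries.

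The library labelled SOX11 replicate 1 stood apart in luminal prostate markers. KLK3, which encodes prostate-specific antigen, a protein that DU145 is known to lack, had 95 counts in it, against 0 in the other SOX11 and 0 to 4 in control libraries. KLK2 had 161 counts in it, against 0 to 2 in the other SOX11 and 1 to 3 in control libraries, and TMPRSS2 had 24, against 0 to 1 and 0. In all, 16 genes in this library were above 2 CPM and over 8 times their level in every other library, and 0 genes were so in any of the other 7. The part of this signal in the results was not tested beyond leaving the library out. The main counts are also given without it, as alternatives added after the data were seen where they go beyond the calls of the 36 genes.

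In SOX11 cells, 12 of the 36 ribosome biogenesis genes fell and 0 rose (edgeR adjusted p below 0.05). The falls were small: among the 12, NCL fell by 6.05% and IMP3, at the other end, fell by 16.1%. All 36 genes passed the filter on low counts, and the lowest count of any of them in any library was 20. Over all 15665 tested genes, 20.0% were called, 9.67% lower and 10.3% higher, so that 33.3% of these genes called lower stands beside 9.67%. Among tested genes of at least 30 CPM, a bound set after the values were seen, 16.9% were called lower and 10.6% higher. Of the 33 ribosome biogenesis genes above that bound, 12 (36.4%) fell. The log2 fold change was below 0 in 27 of 36 genes (75.0%), against 49.7% of all tested genes. Its median was -0.068 over the 36 genes and 0.001 over all tested genes. For 8 of the 36 genes (22.2%), all lower, every SOX11 value lay outside the range of the control values, against 21.1% of all tested genes in either direction and 10.4% lower.

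How many of the 12 falls were called depended on single libraries. Without SOX11 replicate 1, 8 genes fell (22.2%, against 8.16% of all tested genes called lower) and the median log2 fold change was -0.083. In that fit 27 of 36 genes lay below 0, against 50.3% of all tested genes, and 8 of 36 did not overlap with the control values, all lower, against 12.3% of all tested genes. Of the 33 genes of at least 30 CPM, 8 (24.2%) fell, against 14.6% of tested genes of that level. Without SOX11 replicate 2, 8 of the 36 fell (22.2%, against 9.11% of all tested genes) and the median was -0.036. Without control replicate 2, 7 fell (19.4%, against 7.70%). With libraries scaled by total counts alone, 7 fell (19.4%, against 6.78% of all tested genes called lower), and the calls over all genes split into 2044 higher and 1062 lower, against 1615 and 1515 with TMM factors. IMP3, NIP7, SRM, UTP4, WDR43, DDX21 and NOP56 were called lower in all 17 alternative settings and left-out libraries, while NOLC1, NCL, NOP58, HEATR1 and NOB1 were not.

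**Figure D1:**
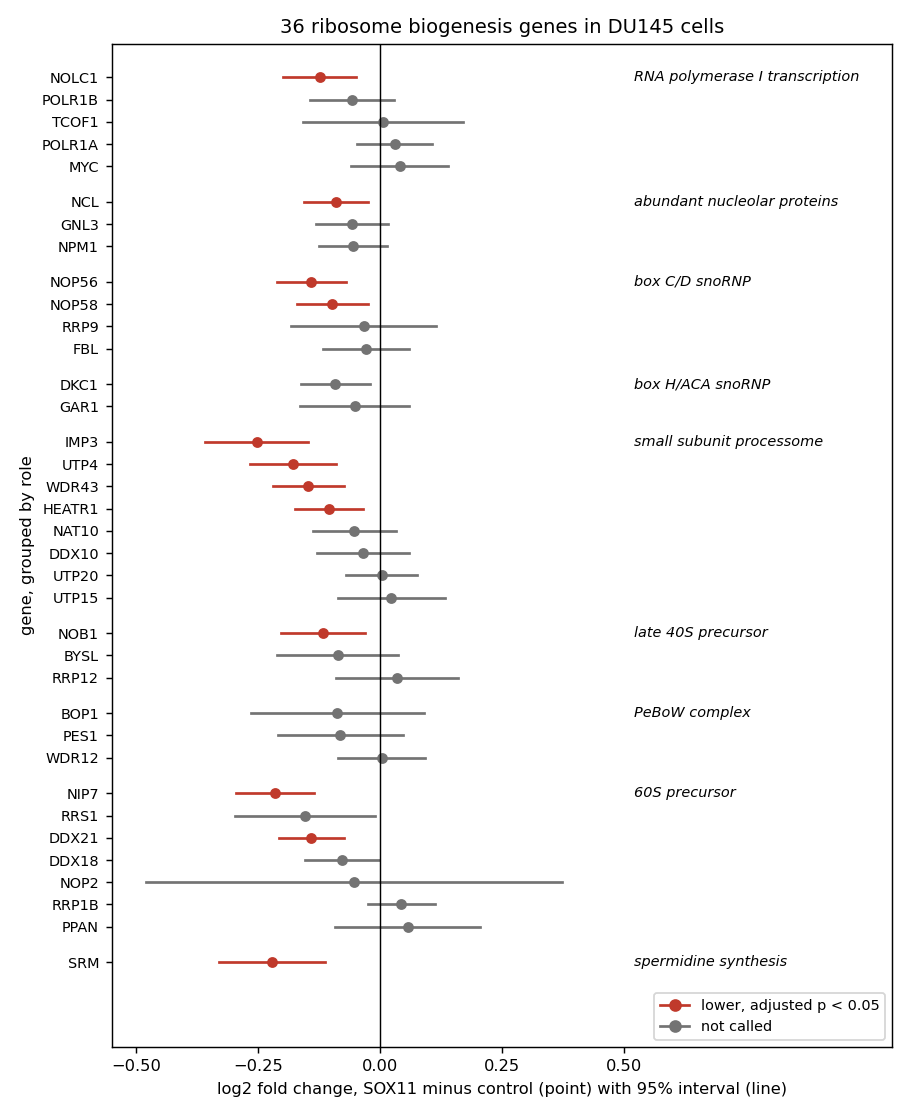
Log2 fold change of each of the 36 genes, SOX11 minus control (point), with its 95% interval from the edgeR fit (line), grouped by role from top to bottom; n = 4 libraries per group. The 12 genes called lower are red and lie between -0.25 for IMP3 and -0.09 for NCL, the 24 grey genes were not called, and the interval of NOP2 is the widest.

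The small subunit processome held 4 of the 12 falls among its 8 members. IMP3, a subunit of the complex bound to the U3 snoRNA, had 34.0, 31.4, 33.1 and 30.5 CPM in SOX11 libraries 1 to 4, against 38.8, 39.0, 37.9 and 37.8 CPM in control libraries 1 to 4. All 4 SOX11 values lay below all 4 control values, with a log2 fold change of -0.25 ± 0.0517 SE (95% interval -0.36 to -0.15, edgeR adjusted p = 0.000557). IMP3 (ENSG00000177971) lies on chromosome 15, 75639085 to 75648706, minus strand (GRCh38), and exons of SNX33 overlap it on the opposite strand. SNX33 had a log2 fold change of 0.04 (edgeR adjusted p = 0.687).

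UTP4, a WD-repeat protein of the subcomplex that links the processome to ribosomal RNA transcription, had 131.8, 128.5, 141.5 and 149.8 CPM in SOX11 libraries, against 150.0, 163.3, 148.8 and 161.3 CPM in control libraries. SOX11 replicate 4 lay just above control replicate 3, so the groups overlapped, with a log2 fold change of -0.18 ± 0.0431 SE (edgeR adjusted p = 0.00392). WDR43, another protein of that subcomplex, had 180.2, 181.1, 189.6 and 191.5 CPM in SOX11 libraries, against 198.7, 206.4, 198.3 and 218.4 CPM in control libraries. Its groups did not overlap, and the log2 fold change was -0.15 ± 0.0352 SE (edgeR adjusted p = 0.00294).

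HEATR1, the largest protein of the same subcomplex, had 148.3, 151.8, 152.7 and 156.9 CPM in SOX11 libraries, against 164.0, 169.4, 156.9 and 164.7 CPM in control libraries. The highest SOX11 value and the lowest control value were almost equal, without overlap. The log2 fold change was -0.10 ± 0.0340 SE (edgeR adjusted p = 0.0276), and the call ended without SOX11 replicate 1 (0.0774), SOX11 replicate 3 (0.0599), control replicate 2 (0.118) or control replicate 4 (0.0636) and with total counts alone (0.108). Exons of LGALS8 (galectin-8) overlap HEATR1 on the opposite strand. LGALS8 itself fell (log2 fold change -0.30 ± 0.0581 SE, edgeR adjusted p = 0.000348). The kit keeps strand, but the strand setting of the authors' counting is not given in the sources used here, so reads of genes that overlap on opposite strands may not have been told apart. The same holds for UTP4 with CHTF8 (9 to 16 counts in SOX11 and 9 to 17 in control libraries) and for NOB1 with AC092115.3 (log2 fold change -0.37, edgeR adjusted p = 0.187).

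The other 4 processome members did not pass the test. Their log2 fold changes were -0.05 for NAT10, which acetylates cytidines of ribosomal RNA, -0.04 for the helicase gene DDX10, 0.00 for UTP20 and 0.02 for UTP15. The 95% intervals of these 4 genes ran from -0.14 at the lowest bound (NAT10) to 0.13 at the highest (UTP15), and UTP15 also belongs to the subcomplex of UTP4, WDR43 and HEATR1.

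Box C/D snoRNPs, which methylate ribosomal RNA, had 2 falls among 4 members. NOP56, a core scaffold protein of these particles, had 257.0, 248.7, 260.8 and 273.1 CPM in SOX11 libraries, against 274.9, 288.4, 280.3 and 302.6 CPM in control libraries. The groups did not overlap, with SOX11 replicate 4 and control replicate 1 nearest to each other, and the log2 fold change was -0.14 ± 0.0344 SE (edgeR adjusted p = 0.00343).

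NOP58, the partner of NOP56 in the same particles, had 117.8, 111.4, 117.4 and 120.3 CPM in SOX11 libraries, against 125.6, 125.9, 126.4 and 121.4 CPM in control libraries. The groups did not overlap, but the fall was close to the threshold (log2 fold change -0.10 ± 0.0355 SE, edgeR adjusted p = 0.04997). Over the 17 alternatives its adjusted p ran from 0.0377 to 0.174, and it was called in 3 of them. FBL, the methyltransferase of these particles, had 200.8, 186.3, 207.7 and 217.0 CPM in SOX11 libraries, against 191.4, 212.2, 207.2 and 217.1 CPM in control libraries. The groups overlapped over most of their range (log2 fold change -0.03, 95% interval -0.12 to 0.06). RRP9, which marks the U3 particle, had a log2 fold change of -0.03 (95% interval -0.18 to 0.11).

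Box H/ACA snoRNPs, which convert uridines to pseudouridines, had 0 calls among 2 members. DKC1, their pseudouridine synthase, had 217.1, 211.1, 225.5 and 231.8 CPM in SOX11 libraries, against 227.0, 244.9, 228.6 and 242.4 CPM in control libraries. The groups overlapped. Its log2 fold change of -0.09 ± 0.0349 SE missed the threshold (edgeR adjusted p = 0.0637), and it was called lower in 3 of 17 alternatives. GAR1, a subunit of the same particle, had a log2 fold change of -0.05 (95% interval -0.16 to 0.06).

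Among 7 factors of the 60S precursor, 2 fell (28.6%, against 9.67% of all tested genes). NIP7, which takes part in late nucleolar assembly, had 86.7, 86.2, 91.0 and 92.3 CPM in SOX11 libraries, against 97.8, 104.5, 103.4 and 107.8 CPM in control libraries. Every SOX11 value lay below every control value. Its log2 fold change was -0.22 ± 0.0392 SE (95% interval -0.30 to -0.14), and its edgeR adjusted p of 0.000137 was the smallest of the 36 genes. NIP7 (ENSG00000132603) lies on chromosome 16, 69337996 to 69343111, plus strand, and overlaps COG8 on the opposite strand, which had a log2 fold change of 0.06 (edgeR adjusted p = 0.546).

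DDX21, a nucleolar helicase that also acts in ribosomal RNA transcription, had 417.2, 418.2, 438.1 and 448.1 CPM in SOX11 libraries, against 452.0, 480.1, 469.5 and 496.9 CPM in control libraries. The groups did not overlap (log2 fold change -0.14 ± 0.0327 SE, edgeR adjusted p = 0.00207). The helicase gene DDX18 had 142.8, 154.0, 158.0 and 165.3 CPM in SOX11 libraries, against 162.4, 163.4, 163.3 and 165.3 CPM in control libraries. Its SOX11 libraries spread much wider than its control libraries, and it was not called (log2 fold change -0.08, edgeR adjusted p = 0.148), apart from the fit without SOX11 replicate 4 (0.0420).

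RRS1, which in yeast helps to load the 5S ribonucleoprotein, had 54.7, 45.2, 57.3 and 52.0 CPM in SOX11 libraries, against 56.0, 62.6, 52.5 and 61.1 CPM in control libraries. SOX11 replicate 2 was the lowest of the 8 and the groups overlapped (log2 fold change -0.15 ± 0.0677 SE, edgeR adjusted p = 0.127, called lower in 3 of 17 alternatives). RRP1B and PPAN had log2 fold changes of 0.04 and 0.06 and were not called, and the upper bounds of their 95% intervals were 0.11 and 0.21. PPAN shares exons with P2RY11 and with a read-through gene of both on the same strand, so its count is uncertain.

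NOP2, a ribosomal RNA methyltransferase, had the fewest counts of the 36 genes. It had 1.73, 1.18, 1.58 and 1.43 CPM in SOX11 libraries, against 1.47, 1.62, 1.58 and 1.46 CPM in control libraries. These values rest on 20 to 28 and 21 to 30 counts. Its 95% interval of -0.48 to 0.37 on the log2 scale allows a wide range of changes. In GENCODE 29, NOP2 shares exons with a gene on the same strand, AC006064.6, and the part of that overlap in its low count was not tested.

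RNA polymerase I transcription had 1 fall among 5 members (20.0%, against 9.67% of all tested genes). NOLC1, a phosphoprotein that links polymerase I to snoRNPs, had 431.6, 408.6, 450.9 and 458.0 CPM in SOX11 libraries, against 451.4, 488.0, 462.6 and 504.1 CPM in control libraries. SOX11 replicate 4 lay above control replicate 1, so the groups overlapped (log2 fold change -0.12 ± 0.0367 SE, edgeR adjusted p = 0.0167). Leaving out SOX11 replicate 1, SOX11 replicate 2, control replicate 2 or control replicate 4 ended its call (edgeR adjusted p 0.0534 to 0.0816), as did total counts alone (0.0538).

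MYC did not pass the test. It had 79.6, 67.8, 81.5 and 76.9 CPM in SOX11 libraries, against 73.5, 73.6, 71.6 and 78.7 CPM in control libraries. SOX11 replicate 2 was the lowest of the 8 libraries and the other 3 SOX11 libraries lay above 3 of the 4 control libraries. The log2 fold change was 0.04 (95% interval -0.06 to 0.14, edgeR adjusted p = 0.629), so the interval holds changes from 0.960-fold to 1.10-fold. The 2 largest polymerase I subunits, POLR1A and POLR1B, had log2 fold changes of 0.03 and -0.06, and the Treacher Collins protein gene TCOF1 had 0.01 with an interval of -0.16 to 0.17. None of these 3 was called in any alternative.

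Of the 3 abundant nucleolar proteins, 1 fell (33.3%, against 9.67% of all tested genes). NCL, which encodes nucleolin and drew the most counts of the 36 genes, had 1113, 1090, 1164 and 1182 CPM in SOX11 libraries, against 1147, 1239, 1209 and 1246 CPM in control libraries. The groups overlapped, with control replicate 1 below 2 of the SOX11 libraries. The log2 fold change was -0.09 ± 0.0319 SE (edgeR adjusted p = 0.0443), and the call held in 9 of 17 alternatives, among them 2 of the 8 that omit a library. NPM1, nucleophosmin, had a log2 fold change of -0.06 (95% interval -0.12 to 0.01), and GNL3, nucleostemin, had -0.06 (-0.13 to 0.02). Neither was called in any alternative. GENCODE 29 lists 45 pseudogenes named after NPM1, and reads shared with them may be split or lost. Of the genes that fell, NOP56 and NIP7 have 3 such pseudogenes each and NCL, IMP3 and SRM 2 each.

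Corrected for length, NPM1 had the highest level of the 36 genes, at 982 TPM (a level corrected for GENCODE 29 exon length) in SOX11 and 997 TPM in control libraries. NCL stood at 562 and 584 TPM and NOLC1 at 377 and 402 TPM. At the low end, DDX10 had 17.9 TPM in SOX11 and 18.0 TPM in control libraries, and NOP2 1.08 and 1.09 TPM.

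Late 40S precursors had 1 fall among 3 members (33.3%, against 9.67% of all tested genes). NOB1, the endonuclease that makes the end of 18S ribosomal RNA, had 145.4, 126.0, 144.4 and 142.2 CPM in SOX11 libraries, against 142.7, 156.8, 148.3 and 157.0 CPM in control libraries. SOX11 replicate 2 lay far below the others, and the groups overlapped. With all libraries the log2 fold change was -0.12 ± 0.0420 SE (edgeR adjusted p = 0.0487). It was -0.07 without SOX11 replicate 2 (edgeR adjusted p = 0.196), and the call held in 6 of 17 alternatives. BYSL, another 40S assembly factor, had a log2 fold change of -0.09 (95% interval -0.21 to 0.04) and RRP12, which in yeast acts in export of the subunits, of 0.04 (-0.09 to 0.16). The 3 subunits of the PeBoW complex, which processes 60S precursor RNA, were not called, with -0.08 for PES1, -0.09 for BOP1 and 0.00 for WDR12, and their 95% intervals lay between -0.26 and 0.09.

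SRM, spermidine synthase, makes a polyamine and is listed with these genes as a known MYC target. It had 102.1, 91.9, 103.5 and 102.7 CPM in SOX11 libraries, against 107.0, 125.0, 109.3 and 124.8 CPM in control libraries. The groups did not overlap, and control replicates 1 and 3 were close to the SOX11 libraries. The log2 fold change was -0.22 ± 0.0515 SE (95% interval -0.33 to -0.11, edgeR adjusted p = 0.00415), and it ran from -0.26 to -0.18 over the alternatives. SRM (ENSG00000116649) lies on chromosome 1, 11054584 to 11060024, minus strand.

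**Figure D2:**
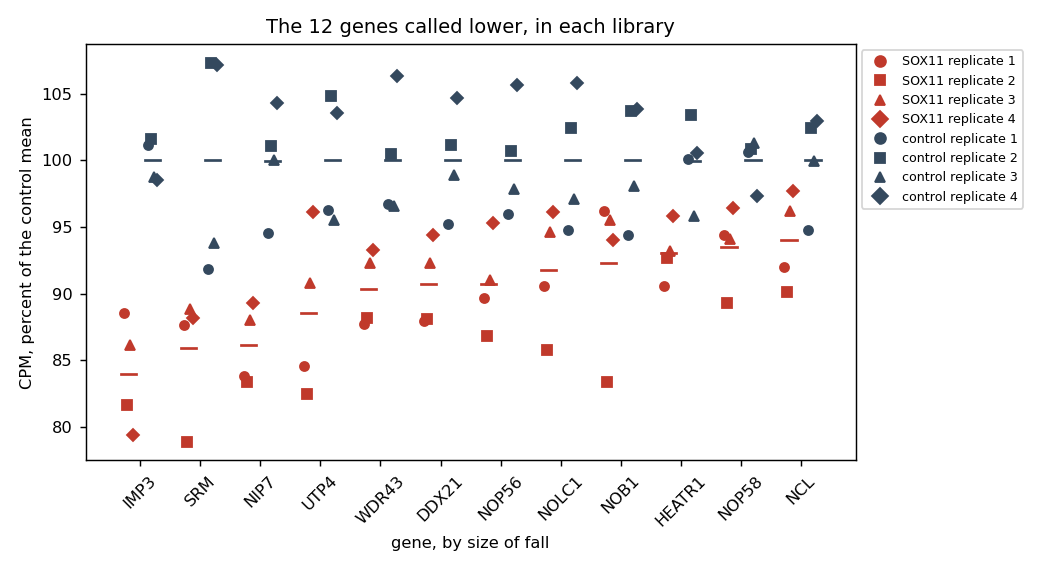
CPM of the 12 genes called lower in each library, as a percent of that gene's mean over the 4 control libraries; red symbols on the left of each pair are SOX11 libraries, dark symbols on the right control libraries, symbol shapes mark the replicate numbers, and short bars are group means. IMP3 and NIP7 separate by the widest gaps, and SOX11 replicate 2 (squares) is the lowest library for SRM and NOB1.

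The genes varied together between libraries of the same group. Each gene's log2 CPM was set against its own mean over the 8 libraries, and the median over the 36 genes was taken in each library. This median was -0.041, -0.124, 0.005 and 0.021 in SOX11 libraries 1 to 4, against -0.019, 0.080, 0.010 and 0.084 in control libraries 1 to 4. SOX11 replicate 2 was the lowest, and SOX11 replicates 3 and 4 lay above control replicate 1, so the groups overlapped. SOX11 replicate 2 was the lowest of all 8 libraries for 22 of 36 genes (61.1%), against 15.4% of all tested genes. The SD of a gene's CPM between libraries, as a percent of its mean, had a median of 5.02% in SOX11 and 4.36% in control libraries. It ranged from 2.32% (HEATR1) to 15.7% (NOP2) in SOX11 libraries and from 0.756% (DDX18) to 9.36% (BOP1) in control libraries.

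The 36 genes together took 0.663%, 0.637%, 0.686% and 0.693% of counts in SOX11 libraries 1 to 4, against 0.665%, 0.712%, 0.681% and 0.719% in control libraries 1 to 4. The means were 0.670% ± 0.0252 in SOX11 and 0.694% ± 0.0256 in control libraries (SD, n = 4 each), and the groups overlapped. Mitochondrially encoded genes took their highest shares in SOX11 replicate 2 (9.35%) and control replicate 1 (9.24%), the libraries with the lowest median of the 36 genes in their group, and 8.73% to 8.80% in the other SOX11 and 8.55% to 8.86% in the other control libraries. Their part in the result was not tested. With SOX11 and the mitochondrially encoded genes left out of the scaling, 11 of the 36 genes were called lower.

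**Figure D3:**
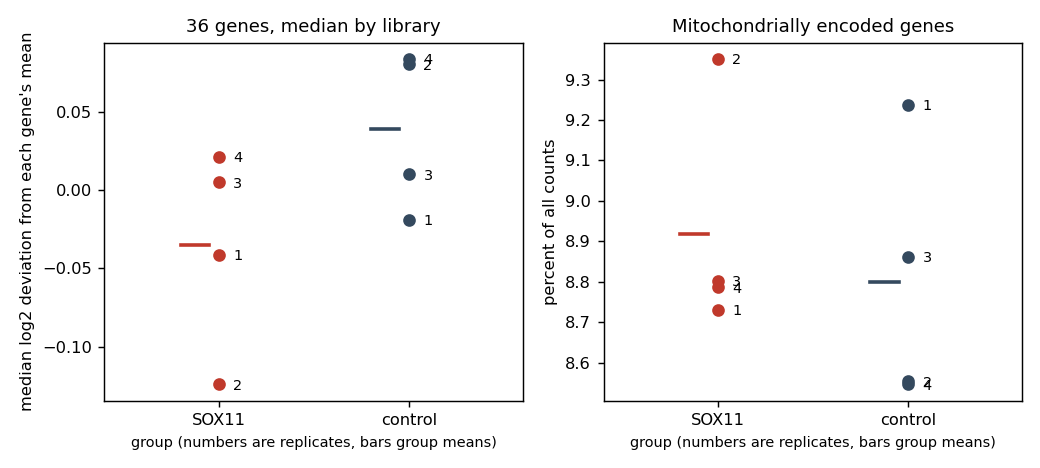
Left, the median over the 36 genes of the log2 CPM deviation from each gene's own mean, for each library; right, the percent of counts in mitochondrially encoded genes (this axis does not start at 0). Points are libraries with their replicate numbers, SOX11 on the left of each panel and control on the right, and bars are group means. SOX11 replicate 2 is lowest at left (-0.124) and highest at right (9.35%).

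The rest of the ribosome assembly pathway was read from 135 other genes, all of which were tested. Of these, 19 (14.1%) fell and 0 rose, with a median log2 fold change of -0.061. By stage, 1 of 13 genes of the polymerase I machinery, 1 of 9 snoRNP genes, 3 of 43 small subunit genes, 12 of 53 genes of 60S precursors and 2 of 17 exosome and trimming genes fell, against 9.67% of all tested genes. The shares were 7.69% of polymerase I, 11.1% of snoRNP, 6.98% of small subunit, 22.6% of 60S and 11.8% of exosome genes. Among the 113 of the 135 genes of at least 30 CPM, 19 (16.8%) fell, a share near the 16.9% of all tested genes of that level. On that background, 12 of 49 genes of 60S precursors (24.5%) and 3 of 34 small subunit genes (8.82%) fell. Without SOX11 replicate 1, 18 of the 135 (13.3%) fell, 11 of them genes of 60S precursors, and 0 rose, against 8.16% of all tested genes called lower. Whether these shares differ from one another was not tested.

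SBDS, which releases a factor that keeps 60S subunits from joining, was at 64.6 ± 1.25 CPM in SOX11 and 84.9 ± 2.57 CPM in control libraries (log2 fold change -0.39 ± 0.0398 SE, edgeR adjusted p = 9.6e-09). BRIX1, a 60S assembly factor, was at 116.5 ± 2.24 CPM in SOX11 and 133.5 ± 4.34 CPM in control libraries (-0.19 ± 0.0353 SE, edgeR adjusted p = 0.000126). TAF1D, a subunit of the polymerase I selectivity factor, fell by 0.17 on the log2 scale and NOP10, an H/ACA subunit beside DKC1 and GAR1, by 0.14. In the small subunit list, TSR1 fell by 0.13 and IMP4, the partner of IMP3 at the U3 snoRNA, by 0.15, and the remaining gene of the 3 was UTP3 (-0.15). The exosome subunit genes EXOSC3 and EXOSC8 fell by 0.21 and 0.16. These 7 genes had edgeR adjusted p values from 0.00019 (TAF1D) to 0.0232 (EXOSC8).

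Genes that read out or control this pathway moved in both directions. RPL5 and RPL11, which with 5S RNA form the particle that holds MDM2 when ribosome assembly is disturbed, fell by 0.10 and 0.09 on the log2 scale. CDKN1A, which encodes a cell cycle inhibitor, rose by 0.17 (37.0 ± 2.87 CPM in SOX11 and 32.8 ± 0.755 CPM in control libraries), while MDM2 was not called (0.06, 95% interval -0.04 to 0.17). In the MYC network, 3 of 11 tested genes rose (27.3%, against 10.3% of all tested genes) and 2 fell (18.2%, against 9.67%). MXD4 (0.23) and MNT (0.20), which encode MAX partners that repress transcription, rose. ZBTB17 (0.19), whose product binds MYC, rose as well. MXD1 (-0.40), which encodes another repressing partner of MAX, and MLX (-0.12) fell. MAX itself was not called (-0.05, 95% interval -0.14 to 0.05). Of 7 other polyamine genes, 2 fell (28.6%, against 9.67% of all tested genes). They had -0.24 for the spermine synthase gene SMS and -0.20 for OAZ1, an inhibitor of ornithine decarboxylase. ODC1, that decarboxylase, had -0.03 (95% interval -0.15 to 0.08). Without SOX11 replicate 1, the calls of RPL5 (edgeR adjusted p = 0.0901), RPL11 (0.0804), CDKN1A (0.143) and MNT (0.0548) ended, and those of MXD4, ZBTB17, MXD1, MLX, SMS and OAZ1 held.

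**Figure D4:**
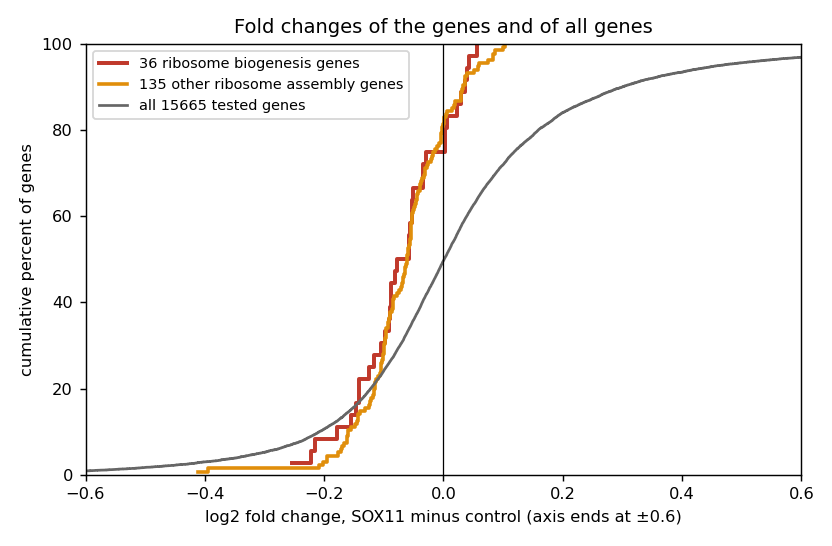
Cumulative percent of genes (y axis) at or below each log2 fold change, SOX11 minus control (x axis, ends at ±0.6), for the 36 ribosome biogenesis genes (red), 135 other ribosome assembly genes (orange) and all 15665 tested genes (grey). The red and orange lines run close together, with medians of -0.068 and -0.061, and both are steeper than the grey line, whose median is 0.001.

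Start regions are shown for the called genes with the smallest adjusted p, and for 2 more called genes that hold the MYC-type E-box. RefSeq windows (GRCh38.p14) were matched for 27 of the 36 genes, and the 250 bases before the listed start were searched on both strands for CACGTG (E-box), AACAATG with its shorter form AACAAT (SOX core), and, added after the data were seen, CCGGAA (ETS core). The E-box was found in 4 of 27 windows (14.8%), against 8.87% of the windows of tested genes. It was found in 2 of 10 windows of genes called lower (UTP4 and SRM) and in 2 of 17 windows of genes not called (NAT10 and UTP20). The SOX core was found in 0 of the 10 and 2 of the 17 (POLR1A and WDR12), against 4.19% of tested genes, and the longer form in 1 of 27 (WDR12), against 1.22%. The ETS core was found in 5 of the 10 and 6 of the 17, against 25.3% of tested genes. A match is a description of letters and not a bound site. The listed starts of all 6 genes shown lie inside the GENCODE 29 span of the gene, close to its edge for DDX21, WDR43 and SRM and well inside it for IMP3, NIP7 and UTP4. The first 4 windows below belong to the genes with the smallest adjusted p, and those of UTP4 and SRM were added after the matches were seen. They run 5′ to 3′ toward the start, with matches to CACGTG and to CCGGAA or its reverse complement in capitals.
NIP7: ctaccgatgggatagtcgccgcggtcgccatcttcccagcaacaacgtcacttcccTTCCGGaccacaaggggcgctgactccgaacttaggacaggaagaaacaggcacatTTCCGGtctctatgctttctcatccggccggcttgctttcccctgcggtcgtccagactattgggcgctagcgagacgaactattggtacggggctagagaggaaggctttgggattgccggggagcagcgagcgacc
IMP3: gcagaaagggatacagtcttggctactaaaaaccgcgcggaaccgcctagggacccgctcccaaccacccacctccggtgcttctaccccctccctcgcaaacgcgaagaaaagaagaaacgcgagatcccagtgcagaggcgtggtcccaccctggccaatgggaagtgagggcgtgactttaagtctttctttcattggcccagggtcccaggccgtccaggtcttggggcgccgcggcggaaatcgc
DDX21: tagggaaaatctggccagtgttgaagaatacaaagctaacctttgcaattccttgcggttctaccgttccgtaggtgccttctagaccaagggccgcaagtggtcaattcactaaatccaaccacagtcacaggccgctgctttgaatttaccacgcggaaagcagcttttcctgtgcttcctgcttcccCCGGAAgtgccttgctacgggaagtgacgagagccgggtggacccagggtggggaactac
WDR43: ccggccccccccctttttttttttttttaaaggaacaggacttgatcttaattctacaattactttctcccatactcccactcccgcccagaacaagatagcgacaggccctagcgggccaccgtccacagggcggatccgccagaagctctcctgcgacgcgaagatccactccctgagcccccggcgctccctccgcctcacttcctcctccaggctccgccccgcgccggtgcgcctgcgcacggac
UTP4: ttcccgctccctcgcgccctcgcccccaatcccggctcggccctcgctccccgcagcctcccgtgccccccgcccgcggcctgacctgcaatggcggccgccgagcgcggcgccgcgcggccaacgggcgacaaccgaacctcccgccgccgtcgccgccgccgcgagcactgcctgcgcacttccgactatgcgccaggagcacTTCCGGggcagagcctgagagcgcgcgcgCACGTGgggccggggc
SRM: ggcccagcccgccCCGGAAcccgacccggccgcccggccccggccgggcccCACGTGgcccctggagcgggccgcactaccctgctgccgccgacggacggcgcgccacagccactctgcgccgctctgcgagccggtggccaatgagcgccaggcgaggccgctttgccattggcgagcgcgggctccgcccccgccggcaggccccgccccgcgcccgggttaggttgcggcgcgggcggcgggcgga

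These windows lie at chr16:69339522-69339771 (NIP7, plus strand), chr15:75640225-75640474 (IMP3, minus), chr10:68955920-68956169 (DDX21, plus), chr2:28894417-28894666 (WDR43, plus), chr16:69132399-69132648 (UTP4, plus) and chr1:11060019-11060268 (SRM, minus). The E-box begins 16 bases before the listed start of UTP4 and 199 bases before that of SRM. ETS cores begin 194 and 138 bases before the start of NIP7, 60 before that of DDX21, 45 before that of UTP4 and 237 before that of SRM. The windows of IMP3 and WDR43 held neither motif.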

How the data were processed

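Per the labels' protocols, 8 poly(A) libraries were prepared with a strand-keeping TruSeq kit. Per the submitters' processing notes, cutadapt, FastQC and STAR 2.7.0e and the build GRCh38 were used. The counting tool, its strand setting and its annotation were not given in the sources used here. Raw counts per Ensembl gene were deposited, without normalization. Of 32066 IDs, 32053 had a symbol.

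From these counts, filterByExpr (minimum count 10) left 15665 genes. Group was the only term of an edgeR 4.0.16 quasi-likelihood fit (robust, TMM factors, R 4.3.3). Benjamini-Hochberg adjustment ran over all tested genes, with calls below 0.05. Each standard error is the coefficient divided by the root of its F value. CPM values were computed from the deposited counts, and TPM values used GENCODE 29 exon lengths. Floors of 3 counts cover counting error only. Scripts were tested on simulated data.

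The genes and lists were chosen with earlier results of these data known, so no list test was run. Values of every library are given for genes called, genes whose call changed under an alternative, MYC, and the most and least abundant gene. Of other lists, up to 2 called genes per direction with the smallest adjusted p are named. FBL, MDM2, MAX, ZBTB17, UTP3, CHTF8, AC092115.3, ODC1, SNX33, COG8 and LGALS8 were added after their values were seen. Protein sequences were not used here, and some listed genes are not reported here. Alternatives were RLE, upper quartile and total count scaling, scaling without SOX11 and mitochondrially encoded genes, no filter, at least 1 CPM in 4 libraries, DESeq2 1.42.0, limma-voom (limma 3.58.1), a replicate block, and leaving out the libraries in turn.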

Additional observations from a re-analysis of the deposited data

Results flagged for a closer look

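A library whose gap to its nearest neighbour took up nearly the whole range of its group was found in 5 of the 72 groups of 4 libraries of the 36 genes. Chance flags about 1 in 20 groups. SOX11 replicate 2 was the low library for SRM (91.9 CPM, against 102.1 to 103.5 in the other SOX11 libraries), NOB1 (126.0 CPM, against 142.2 to 145.4) and RRP12 (78.3 CPM, against 92.7 to 93.7). Among control libraries, replicate 4 was low for NOP58 (121.4 CPM, against 125.6 to 126.4) and replicate 1 for RRP1B (212.1 CPM, against 227.2 to 228.8).

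The same look at luminal genes has no such chance rate, since a few reads in 1 library are enough where the others are at or near 0. SOX11 replicate 1 was the high library for KLK3 (5.86 CPM), KLK2 (9.93 CPM) and TMPRSS2 (1.48 CPM), against 0 to 0.118 CPM for these genes in the other SOX11 libraries. The transcription factor genes EHF (14.3 CPM) and HOXB13 (5.18 CPM) and the prostate membrane antigen gene FOLH1 (6.60 CPM), looked up after the luminal genes were seen, were high in the same library. Control replicate 4 was the high control library for KLK3, at 0.277 CPM and 4 counts.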

How the results depend on the processing

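The 36 genes had 0 calls higher in each of the 17 alternatives. Beside each count stands the share of all tested genes called lower in the same fit. Genes called lower numbered 12 with RLE factors (9.89%), 9 with upper quartile scaling (8.84%), 7 with total counts alone (6.78%), 13 without a filter (5.03%), and 10 each with the stricter filter (10.4%), DESeq2 (7.73%) and limma-voom (9.59%). With 1 library left out they numbered 7 to 13 (7.70% to 9.44%), the median log2 fold change ran from -0.087 to -0.036 and the calls over all genes from 2466 to 3057. The numbers in the titles were checked for pairing. Deviations of same-numbered libraries had correlations of 0.083, -0.329, -0.161 and 0.240 over 9697 genes. Not every library correlated best with its own number. With 4 libraries per group, these values cannot show whether same-numbered libraries were handled together. With the replicate block, 10 of the 36 genes (8.89% of all genes lower) and 2899 genes in all were called, and the median was -0.069. None of the 12 genes called lower changed sign in any alternative, while 7 genes not called did. The cause of these shifts was not tested. NOP2, with 20 to 30 counts per library, had the widest interval, and the reason for its low count was not tested.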

Other observations

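Introns of some of these genes carry small nucleolar RNAs. In GENCODE 29, 7 of the 36 genes (19.4%) hold an annotated snoRNA or scaRNA on the same strand, against 1.69% of tested genes. They are NCL, GNL3, NOP56, NOP58, DKC1, WDR43 and PPAN. Of these 7, 4 fell, with a median log2 fold change of -0.09, and of the other 29 genes 8 fell, with a median of -0.06. Over all 264 tested host genes, 20.1% were called lower and 9.09% higher, against 9.67% and 10.3% of all tested genes, and the median was -0.05. Among all tested genes of at least 30 CPM, 16.9% were called lower and 10.6% higher, and host genes were not matched for level. Without SOX11 replicate 1, 2 of the 7 (28.6%) and 6 of the 29 (20.7%) fell, and 17.0% of the 264 host genes were called lower and 7.20% higher. In that fit, 8.16% of all tested genes were called lower and 8.28% higher. For tested genes of at least 30 CPM these shares were 14.6% and 8.81%. Poly(A) libraries do not measure the snoRNAs themselves.

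The cytosolic ribosomal protein genes, whose products the assembly factors handle, took 4.41% to 4.55% of counts in SOX11 libraries and 4.64% to 4.79% in control libraries, without overlap. The genes called lower among the 36 had a median log2 fold change of -0.14, and all 1515 genes called lower had -0.19.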
